A study of Mus musculus with 51 samples.

Results

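On day 2 of Bmp4-driven differentiation, mouse embryonic stem cells (mESCs) lacking *T* (Brachyury) were compared with wild-type (WT) cells by RNA-seq. Both the WT cells and the *T* knockout (KO) cells were F1G4 mESCs, which were freed of feeder cells, aggregated and exposed to 20 ng/ml Bmp4 for 2 days to form mesoderm. The *T* KO line was a single clone, picked after F1G4 cells were transfected with the Cas9(D10A) nickase and 2 pairs of guides around the promoter and first exon of *T*, and the WT cells carried no edit. The labels name 2 WT samples and 1 *T* KO sample for that day, while the table gives each gene 1 value per condition in FPKM (fragments mapped to a transcript, scaled by its length and by the depth of the library). Legends for other RNA-seq panels of the study describe averages over replicates, so that it is uncertain how many KO samples the column holds. Spread between samples and read depth are unknown, and no difference below has a replicate check or a test.

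Of 24538 genes in the table, 11359 had an FPKM above 1 in WT or KO and were examined. Of these, 430 passed only through WT and 384 only through KO, each the group in which they were higher. *Dusp28*, with an FPKM of 1.00 in the higher column, was the last gene included and *Gm35612*, at 0.998, the first left out. The difference was the log2 ratio of KO to WT after 0.1 was added to both values, which understates the change of low genes. A gene was called lower or higher when this log2 ratio was below −1 or above 1.

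T is the founding member of the T-box transcription factors. It is induced by WNT signalling in the primitive streak, where it marks nascent mesoderm, and embryos without it fail to form the posterior body axis and notochord. Eomes, a related T-box factor, acts in the same streak cells and is needed for their exit from the epithelium, for endoderm and for cardiac mesoderm.

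The guides that made the *T* KO line are shown because they define what the line lacks and what FPKM of *T* can still count. Each site is given from 5′ to 3′, with the PAM in capitals, as matched to the mouse genome (mm10).
guide 1: cgccaccctctccaccttccAGG
guide 2: tcgccgggcacagagagcgcAGG
guide 3: acgcacctacctgccgttctTGG
guide 4: ggcgagtgcccctcgcctcgGGG
Guide 1 matched the minus strand at chr17:8434506-8434525, in the 5′ UTR of exon 1, and guide 2 the plus strand at chr17:8434537-8434556, in the coding part of that exon. Guide 3 matched the minus strand at chr17:8434727-8434746, across the end of exon 1, and guide 4 the plus strand at chr17:8434772-8434791, in intron 1. For guide 4 the site was taken from the reverse oligo of the pair, as the listed forward oligo had no match. *T* (chr17:8434423-8442496, plus strand) starts upstream of all these sites, with 86 bases of exon 1 before the first predicted nick. The outer nicks enclose 280 bases, which hold 228 bases (11.1%) of the 2046-base transcript and the start codon at position 8434531. Exons 2 to 8, with 1732 bases, lie outside, so that FPKM of the whole gene could still count RNA from the edited allele. The deletion in the clone itself was not analysed here. The paper reports that clones were screened for it by PCR. By its account, RT-PCR and western blotting found no *T* transcript or protein in the differentiated *T* KO cells.

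On day 2, FPKM of *T* stood at 44.8 in WT and at 6.64 in KO cells (log2 ratio −2.73). Scaled to the WT time course, *T* stood at 6.44 in KO cells, between its WT levels on day 1 (0.778) and day 2 (43.5). In WT cells of the *Smad4* line, a separate mESC line (129S/SvEvxC57BL/6) sampled on the same day, *T* stood at 26.8. According to the paper, these WT cells carried conditional *Smad4* alleles, in which loxP sites flank the first exon. On day 3, *T* stood at 323 in WT against 3.00 in *T* KO cells (log2 ratio −6.70).

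The KO column differed from every other column in features that do not concern mesoderm. *Rn45s*, the ribosomal RNA precursor, was listed at 0 in *T* KO cells on day 2 and between 784 and 1870 in the other 10 columns set beside it. These were 4 WT stages, WT cells of the *Smad4* line, *T* KO cells on day 3, and *Eomes* KO and *Eomes*/*T* double KO (dKO) cells on days 2 and 3. *Lars2*, which encodes mitochondrial leucyl-tRNA synthetase, stood at 6.99 in WT against 139 in KO cells (log2 4.30), the highest ratio among called protein-coding genes that reached FPKM 10 in a column and stayed above 0.1 in the other. On the scale of the time course *Lars2* lay between 5.06 and 11.6 in all other F1G4-derived columns and at 53.9 in WT cells of the *Smad4* line. Whether total RNA or library composition had a part in the differences below was not tested.

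Genes that differ between F1G4 WT and the edited lines as such were also present. The Y-linked genes *Eif2s3y*, *Uty* and *Ddx3y* stood at 8.95, 5.27 and 3.29 in WT and at 0.0981, 0 and 0.238 in *T* KO cells. All 3 were below 0.2 in the columns of *T* KO cells on day 3 and of *Eomes* KO and dKO cells on both days. *H19*, an imprinted non-coding RNA, stood at 133 in WT against 0.992 in *T* KO cells (log2 −6.93), and on the scale of the time course the other columns of edited F1G4 lines held between 0.748 and 4.32. *Rpl37rt*, a ribosomal protein retrogene, stood at 282 in WT against 21.7 in KO cells (log2 −3.70), with 12.8 to 28.3 in these columns. In *Eomes* KO cells on day 2, whose *T* gene is not edited and where *T* had a log2 ratio of −0.94, the ratios of *Uty*, *Eif2s3y* and *H19* were −5.60, −5.41 and −7.24.

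In *T* KO cells 1065 of 11359 genes were called lower (9.38%) and 596 higher (5.25%), so that lower genes made up 64.1% of those called. In bulk samples, fewer cells of a type and less RNA per cell cannot be told apart. The remaining 9698 genes lay within these limits, and the median log2 ratio of all genes examined was −0.01. Rescaling FPKM to TPM, which brings the length-scaled values of each column to the same total, moved the median to 0.11 and the counts to 912 lower and 843 higher, with lower genes at 52.0%. As a yardstick, WT cells of the *Smad4* line differed from F1G4 WT cells on day 2 at 507 of 11125 genes (4.56%), with the ratios centred on their median. The robust SD of the log2 ratio was 0.61 for *T* KO against WT on day 2, 0.34 for the pair of WT lines and 0.31 for *T* KO against WT on day 3. The spread of *T* KO values on day 2 was thus the widest of these 3 comparisons.

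**Figure D1:**
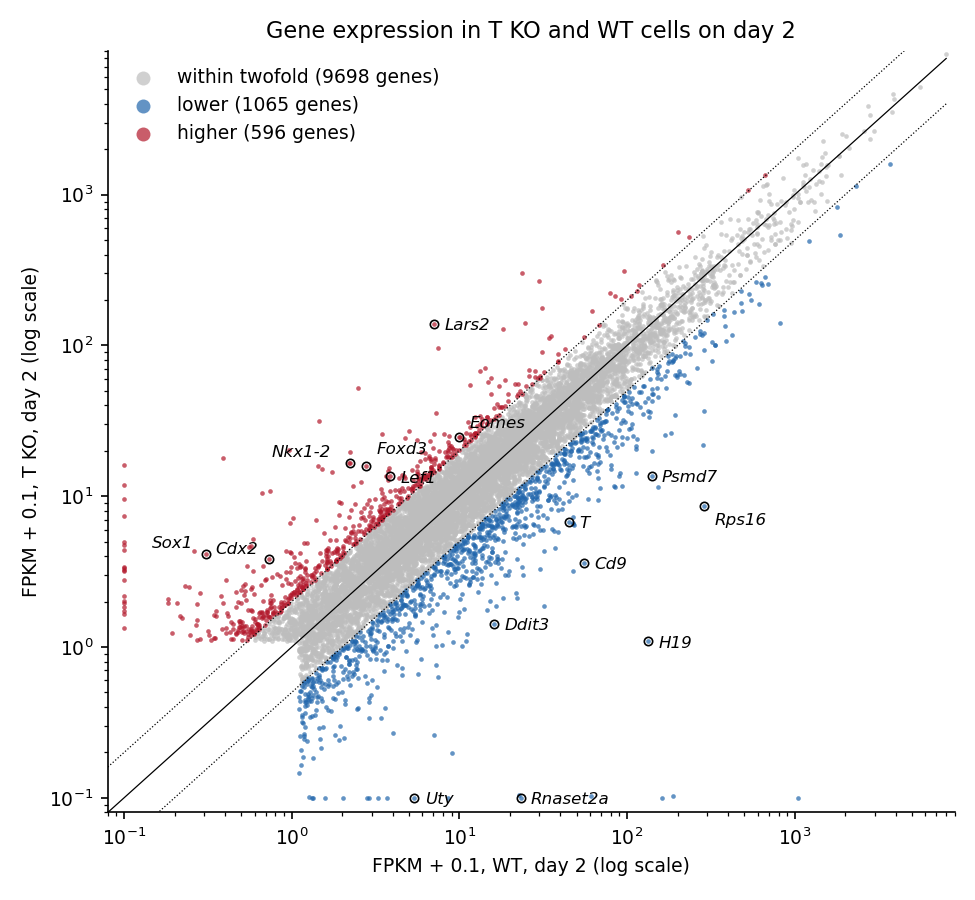
Each point is a gene, with FPKM + 0.1 in WT cells on the x axis and in T KO cells on the y axis, both log scaled, for the 11359 genes examined on day 2. The solid line marks equal values and the dotted lines a log2 ratio of 1 and −1 at the plotted values, with 1065 genes called lower in blue and 596 called higher in red. T lies well below the line (44.8 and 6.64), Eomes above it (9.81 and 24.7) though not against WT cells of the Smad4 line (log2 −0.06), and points at the edges are listed at or near 0 in a column.

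Genes called on day 2 were followed in tables that share no column with this comparison. In *T* KO cells on day 3, where 3.64% of genes were lower and 1.81% higher than in WT, 77 of the 1013 day 2 lower genes examined there were lower (7.60%) and 58 of 464 higher genes were higher (12.5%). These 77 genes made up 18.8% of the 409 lower genes of day 3, and the 58 made up 28.6% of its 203 higher genes. Day 2 lower genes had a median log2 ratio of −0.10 there, and higher genes one of 0.15. In *Eomes* KO cells on day 3, where 8.69% of genes were lower and 6.82% higher, 414 of 1012 day 2 lower genes were lower (40.9%) and 164 of 522 higher genes were higher (31.4%). Their median log2 ratios there were −0.87 and 0.62. Of all genes examined on both days, 2.64% were lower in *T* KO and 7.92% in *Eomes* KO cells on day 3. Among the 203 genes below −2 in *T* KO cells on day 2, 146 of 190 examined were lower in *Eomes* KO cells on day 3 (76.8%), but only 37 of 193 in *T* KO cells on day 3 (19.2%). Genes lower in *T* KO cells on day 2 were thus lower on day 3 in a larger share in *Eomes* KO than in *T* KO cells, where the share of all genes was smaller as well. What the libraries share technically was not tested.

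**Figure D2:**
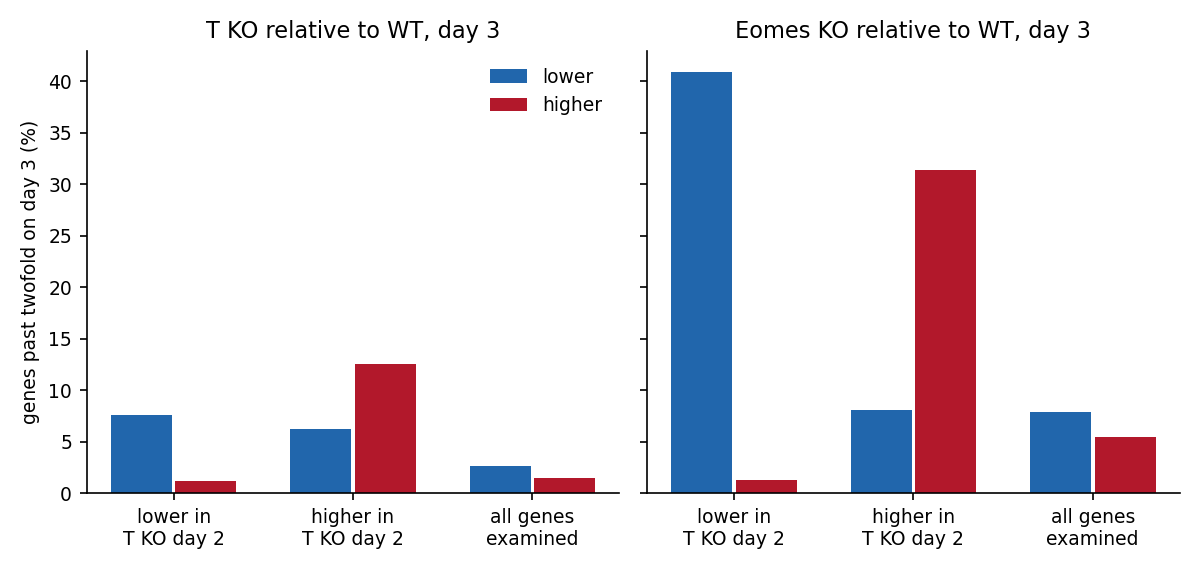
Bars give the percentage of genes more than 1 log2 unit lower (blue) or higher (red) in T KO (left) and Eomes KO cells (right) than in WT on day 3, for genes called lower or higher in T KO cells on day 2 and for all genes examined on both days. Lower genes of day 2 reach 7.60% in T KO and 40.9% in Eomes KO cells, and higher genes 12.5% and 31.4%.

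*Rps16*, a protein of the small ribosomal subunit, stood at 289 in WT against 8.54 in KO cells (log2 −5.06). This was the lowest ratio among called protein-coding genes that reached FPKM 10 in a column and stayed above 0.1 in the other. On day 3, *Rps16* had a log2 ratio of −4.27 in *Eomes* KO and 0.25 in *T* KO cells. Of 38 proteasome subunits and assembly factors examined, 12 were lower (31.6%, against 9.38% of all genes) and none higher (median log2 −0.50). *Psmd7*, of the proteasome lid, stood at 140.0 and 13.6 (log2 −3.36), *Psmc5*, an ATPase of its base, at 169 and 25.2 (log2 −2.74), and *Psmd11* at 69.0 and 11.3 (log2 −2.60). On day 3 their log2 ratios were 0.23, −0.25 and −0.09 in *T* KO and −2.14, −1.87 and −1.13 in *Eomes* KO cells. Of the 12, only *Psmb8* and *Psmb9*, which also count among the interferon genes, were lower in *T* KO cells on day 3. *Psmd1*, *Psma6* and *Psma5* were within the limits in *Eomes* KO cells on day 3. Ribosomal proteins as a group were near the share of all genes, with 6 of 80 cytosolic ones lower (7.50%) and *Rpl32l* higher (median −0.04), and 8 of 78 mitochondrial ones lower (10.3%) and none higher (median −0.08).

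The other protein-coding genes with the lowest ratios within the same FPKM limits came from several pathways. *Car4*, a membrane carbonic anhydrase, stood at 31.8 in WT against 1.79 in KO cells (log2 −4.08), and was higher than WT in *T* KO cells on day 3 (1.16). *Cd9*, a tetraspanin of the cell surface, was at 54.9 and 3.52 (log2 −3.92), with a log2 ratio of 0.30 on day 3. *Fam50a*, *Hnrnph3*, *Timm8a1* and *Nol12* had log2 ratios of −3.91, −3.39, −3.36 and −3.32. Among these 4 genes, only *Timm8a1*, a chaperone of mitochondrial import, was also called lower in *T* KO cells on day 3 (−2.08), while all 4 were lower in *Eomes* KO cells on day 3. Among housekeeping genes 2 of 18 were lower (11.1%) and 1 higher (5.56%), near the 9.38% and 5.25% of all genes (median −0.07). *Sdha*, a subunit of succinate dehydrogenase, stood at 114 in WT against 23.8 in KO cells (log2 −2.26), and *Actb* at 1213 and 1131.

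Several of the most extreme ratios were uncertain. *Hmga1b*, *Rnaset2a* and *Amd1* were listed below 0.01 in KO cells, and their log2 ratios (−9.21, −7.85 and −7.75) were set by the pseudocount. Each shares sequence with a near-identical copy, and multi-mapped reads may be split between them. Summed with its copy, *Hmga1b* had a ratio of −0.25 and *Amd1* of −0.52, whereas *Rnaset2a* with *Rnaset2b* stood at 25.9 and 0.382 (log2 −5.75). *Hist1h2br* stood at 2.12 in WT against 19.5 in KO cells (log2 3.14), but the sum with *Hist1h2bq* was at 22.8 and 28.1 (log2 0.30). *Mss51* and *Npffr2* were below 0.1 in WT and at 1.87 and 1.14 in KO cells.

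Primitive streak genes were called in both directions on day 2. Of 13 nascent mesoderm and primitive streak genes examined, 2 were lower (15.4%, against 9.38% of all genes) and 4 higher (30.8%, against 5.25%), with a median log2 ratio of 0.20. Without genes past the limit in *Eomes* KO cells on day 3 the median was 0.87. *Mixl1* passed the FPKM minimum only through WT cells, where its value was higher. *Mixl1*, a homeobox gene of the streak, stood at 1.16 in WT and 0.507 in KO cells (log2 −1.05), and *Fgf8*, a ligand needed for streak cells to migrate, at 14.2 and 7.04, just past the limit. *Sp5*, a direct target of WNT signalling, stood at 2.30 and 8.77 (log2 1.89), *Evx1*, a homeobox gene of the posterior streak, at 3.61 and 7.53 (log2 1.04), and *Fgf4* at 11.6 and 23.4 (log2 1.01). Against WT cells of the *Smad4* line, *Mixl1* (−0.99) and *Evx1* (0.75) lay within the limits. *Wnt3* (16.9 and 18.3), *Nodal* (33.2 and 37.4) and its co-receptor *Tdgf1* (587 and 675) lay within the limits. *Mesp1*, which marks cardiac mesoderm, was listed at 0 in both columns, while *Gsc* was at 0.415 and 0.424.

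*Eomes* was higher in *T* KO than in F1G4 WT cells, at 24.7 against 9.81 (log2 1.32). This difference depended on the WT line, as *Eomes* was at 25.0 in WT cells of the *Smad4* line and 23.9 in *T* KO cells on a common scale (log2 −0.06). On day 3 *Eomes* was lower in *T* KO than in F1G4 WT cells, at 4.83 against 19.6 (log2 −2.0). The other T-box genes examined lay within the limits on day 2, with *Tbx3* at 3.47 and 2.9, *Tbx20* at 0.901 and 1.44, and the T-box and Max-binding factor *Mga* at 23.6 and 22.4.

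Several posterior axis genes were higher. Of 9 genes for paraxial mesoderm and posterior axis examined, 5 were higher (55.6%, against 5.25% of all genes) and none lower (median 1.63). *Pcdh8*, *Cdx2* and *Foxb1*, among others, passed the FPKM minimum only through KO cells, where their values were higher. Without that minimum the median was 0.75. *Pcdh8*, a protocadherin of paraxial mesoderm, stood at 0.485 in WT and 5.09 in KO cells (log2 3.15), *Nkx1-2*, which marks neuromesodermal progenitors, at 2.13 and 16.4 (log2 2.89), and *Cdx2*, a regulator of posterior *Hox* genes, at 0.634 and 3.76 (log2 2.39). *Foxb1* was at 0.982 and 3.24 (log2 1.63). These 4 genes were also above 1 log2 unit against WT cells of the *Smad4* line, with log2 ratios from 1.07 for *Foxb1* to 2.34 for *Cdx2*. *Tbx6* and *Msgn1*, which specify presomitic mesoderm, were near or at 0, with *Tbx6* at 0.0359 and 0.129 and *Msgn1* listed at 0 in both columns. *Rspo3* was at 1.26 and 1.71 on day 2, whereas on day 3 its log2 ratio in *T* KO cells was −7.05.

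*Cdx2* and *Nkx1-2* were above WT in *Eomes* KO and dKO cells on the same day. The dKO line was made from *Eomes* KO cells, so that these columns come from a single clonal lineage. On the scale of the time course *Cdx2* stood at 3.65 in *T* KO, 3.69 in *Eomes* KO and 3.70 in dKO cells on day 2, against 0.617 in WT. *Nkx1-2* was at 15.9, 9.98 and 7.94 in these lines, against 2.06. All 3 comparisons share the F1G4 WT samples, so low WT values enter each of them. *Sp5* did not follow this pattern, with 8.50 in *T* KO, 0.612 in *Eomes* KO and 0.527 in dKO cells, against 2.24 in WT.

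Many neural genes were higher. Of 13 neural fate genes examined 7 were higher (53.8%, against 5.25% of all genes) and none lower (median 1.31). Among the 13, *Sox1*, *Gbx2*, *Irx3* and *Tal2* passed the FPKM minimum only through KO cells, where their values were higher. Without that minimum the median was 0.69. *Sox1*, an early marker of neural plate, stood at 0.209 in WT and 4.01 in KO cells (log2 3.74), *Gbx2*, a homeobox gene of the anterior hindbrain, at 0.458 and 4.52 (log2 3.05), and *Foxd3*, a forkhead gene of epiblast and neural crest, at 2.68 and 15.7 (log2 2.50). *Irx3* was at 0.931 and 3.88 (log2 1.95). *Sox1* and *Irx3* lie on chromosome 8, whose protein-coding genes had a median log2 ratio of 0.20, the highest of any chromosome. *Zic2* (15.3 and 47.6, log2 1.63), *Zic5* (1.34) and *Sox2* (22.2 and 55.2, log2 1.31) were higher as well. *Pax6* was below FPKM 1 in both columns (0.105 and 0.784), and *Nes* was at 27.1 and 16.9. Against WT cells of the *Smad4* line, *Sox2*, *Zic5* and *Irx3* were no longer past the limit (0.59, 0.82 and 0.88), while *Sox1*, *Foxd3*, *Gbx2* and *Zic2* were.

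Pluripotency genes gave a mixed picture. Of 13 naive pluripotency genes 5 were higher (38.5%, against 5.25% of all genes) and none lower (median 0.55), among them the nuclear receptors *Nr0b1* (0.309 in WT and 1.57 in KO, log2 2.03), *Nr5a2* (0.469 and 1.66, log2 1.63) and *Esrrb* (2.09 and 4.86, log2 1.18). *Nr0b1*, *Nr5a2* and *Klf2*, the last within the limits, passed the FPKM minimum only through KO cells, where their values were higher. On the scale of the time course, *Nr0b1*, *Nr5a2* and *Esrrb* stood at 60.3, 20.2 and 70.2 in WT ES cells, against 1.52, 1.61 and 4.71 in *T* KO cells. *Nanog* was at 125 and 183, within the limits. Of 19 core and formative pluripotency genes, *Sox2* and *Etv4* were higher and *L1td1* (199 and 63.9, log2 −1.64) and *Fgf5* (11.9 and 5.20, log2 −1.18) lower, with *Pou5f1*, encoding Oct4, at 764 and 549. Lower genes made up 10.5% of this list, near the 9.38% of all genes, and higher genes the same share, against 5.25%.

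**Figure D3:**
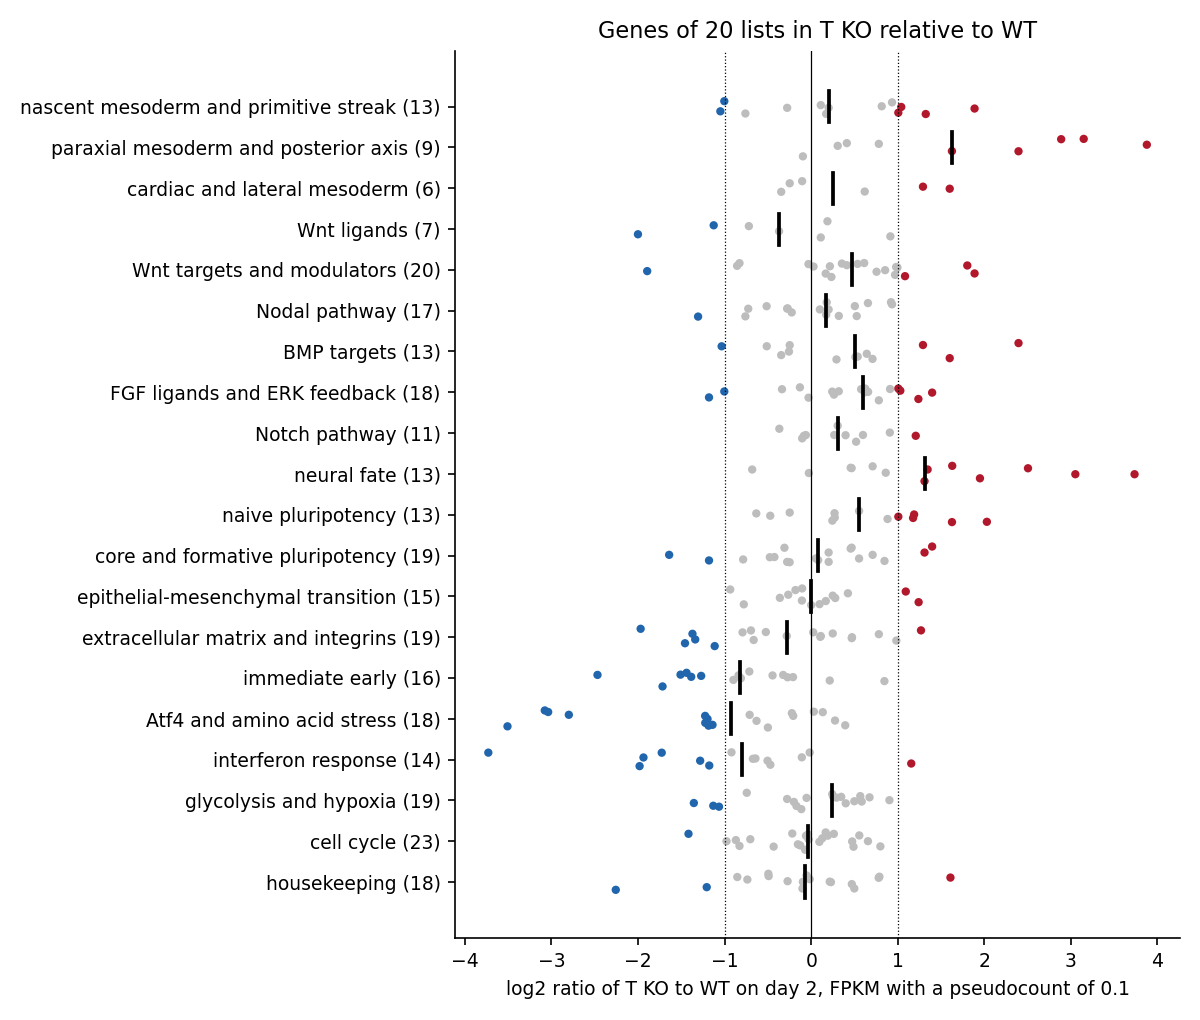
Each point is a gene of the list named at left (number examined in parentheses), with its log2 ratio of T KO to WT on day 2 on the x axis, and the black bar is the median of the list. Blue points are called lower and red points higher, beyond the dotted lines at −1 and 1. Posterior axis and neural genes have medians of 1.63 and 1.31, and Atf4, immediate early and interferon genes medians of −0.93, −0.83 and −0.80. Vertical scatter within a list has no meaning.

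In the WNT pathway, most genes lay within the limits. Of 7 Wnt ligands examined, *Wnt9a* (1.50 in WT and 0.30 in KO, log2 −2.0) and *Wnt4* (2.30 and 0.997, log2 −1.13) were lower and none was higher, while *Wnt3* and *Wnt8a* (18.3 and 20.8), the most abundant, lay within the limits. *Wnt9a*, *Wnt4* and, within the limits, *Wnt7b* passed the FPKM minimum only through WT cells, where their values were higher. Of 20 targets and modulators, 3 were higher and 1 lower (median 0.47), counts that can be read against 5.25% and 9.38% of all genes. *Lef1*, a nuclear effector of β-catenin, was at 3.78 and 13.4 (log2 1.8), *Sp5* had a ratio of 1.89 and the receptor *Fzd10* was at 21.9 and 46.5 (log2 1.08). The feedback inhibitors *Axin2* (11.2 and 22.5, log2 1.00), *Nkd1* (0.97) and *Dkk1* (0.98) lay at or just within the limit. Against WT cells of the *Smad4* line they were past it (1.15, 1.67 and 2.38). *Rspo1*, which encodes a secreted WNT agonist, was lower, at 4.30 and 1.08 (log2 −1.89).

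Of 17 Nodal pathway genes, *Furin*, a convertase that processes the Nodal precursor, was lower (3.99 and 1.55, log2 −1.31, but −0.99 against WT cells of the *Smad4* line) and none was higher. Of 13 BMP targets, *Id1* was lower (53.4 and 26.0, log2 −1.03) and *Msx1*, *Msx2* and *Cdx2* were higher. *Id1* pointed the other way against WT cells of the *Smad4* line (0.63). *Msx2* was at 3.37 and 10.4 (log2 1.6) and *Msx1* at 5.60 and 13.8 (log2 1.29), and both also count among the 6 cardiac and lateral mesoderm genes examined, of which *Hand1* was at 8.95 and 7.02. None of 6 BMP ligands, receptors and antagonists was past the limit. Of 18 FGF ligands and ERK feedback genes, *Etv4* (7.48 and 19.9, log2 1.40), *Etv1* (1.24), *Spry1* (1.03) and *Fgf4* were higher and *Fgf5* and *Fgf8* lower (median 0.60). Higher genes made up 22.2% of this list and 23.1% of the BMP targets, against 5.25% of all genes. Lower genes made up 5.88% of the Nodal list, 7.69% of the BMP targets and 11.1% of the FGF list, near the 9.38% of all genes. *Etv4* (0.82) and *Etv1* (0.33) lay within the limits against WT cells of the *Smad4* line. Of 11 Notch pathway genes, *Nrarp*, a feedback inhibitor, was higher (3.32 and 7.79, log2 1.21) and none was lower.

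Of 15 genes of epithelial-to-mesenchymal transition (EMT), 2 were higher and none lower (median 0.00), beside 5.25% and 9.38% of all genes. *Twist1* (2.89 and 6.27, log2 1.09) and *Zeb2* (0.573 and 1.49, log2 1.24), transcription factors that promote EMT, were higher, but lay within the limits against WT cells of the *Smad4* line (0.77 and 0.62). *Zeb2* passed the FPKM minimum only through KO cells. *Cdh1*, encoding E-cadherin, was at 170 and 88.8 (log2 −0.94), *Cdh2* at 1.15 and 0.628, and *Vim* at 42.4 and 39.4. On day 3, by contrast, the log2 ratios of *Cdh2*, *Vim* and *Fn1* in *T* KO cells were −4.34, −2.37 and −2.07. Of 19 extracellular matrix and integrin genes 5 were lower (26.3%, against 9.38% of all genes) and 1 higher (median −0.28, but 0.11 over the members with FPKM above 5). *Itga8* (2.11 and 0.464, log2 −1.97), *Itga1* (log2 −1.46), *Nid1*, a basement membrane protein (3.92 and 1.45, log2 −1.37), and the laminin chain *Lamb1* (35.4 and 13.9, log2 −1.34) were lower, and *Has2*, a hyaluronan synthase, was higher (25.8 and 62.3, log2 1.27). *Nid1* (−0.31) and *Itgav* (−0.67), the fifth lower gene, lay within the limits against WT cells of the *Smad4* line. *Itga8* passed the FPKM minimum only through WT cells. Of 17 guidance and cell movement genes, *Sema3e* (8.01 and 1.62, log2 −2.24), *Efnb2* (14.6 and 4.57, log2 −1.65) and *Efna1* (log2 −1.17) were lower and *Epha4* was higher (log2 1.33, but −0.17 against WT cells of the *Smad4* line).

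Of 18 genes of the Atf4 and amino acid stress response, 9 were lower (50.0%, against 9.38% of all genes) and none higher (median −0.93). Without the genes past the limit in *Eomes* KO cells on day 3 the median was −0.22. *Chac1* and, within the limits, *Slc7a11* passed the FPKM minimum only through WT cells, where their values were higher. The transcription factor *Ddit3* stood at 16.1 in WT and 1.32 in KO cells (log2 −3.51), *Chac1*, which degrades glutathione, at 9.06 and 0.985 (log2 −3.08), and the pseudokinase *Trib3* at 14.4 and 1.67 (log2 −3.04). *Ddit4*, an inhibitor of mTORC1, was at 23.4 and 3.28 (log2 −2.80), and all 4 were below −2 against WT cells of the *Smad4* line. There, 6 of the 9 lower genes were past the limit, and *Psat1* (−0.80), *Mthfd2* (−0.87) and *Slc3a2* (−0.78) were not. *Atf4* itself was at 311 and 190 and *Asns* at 183 and 200, within the limits. Of 16 immediate early genes 6 were lower (37.5%) and none higher (median −0.83), led by *Egr1* (4.14 and 0.665, log2 −2.47), *Atf3* (log2 −1.72) and *Fos* (2.81 and 0.924, log2 −1.51). Among the 16, *Egr1*, *Fos*, *Egr2* and, within the limits, *Fosl1* passed the FPKM minimum only through WT cells, where their values were higher. Immediate early calls depended on the WT line. Against WT cells of the *Smad4* line only *Atf3* stayed below −1 (−1.29), while *Jun* (−0.57) and *Ier2* (−0.98) lay within the limits and *Egr1* (0.18), *Fos* (0.27) and *Egr2* (0.89) pointed the other way.

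Of 14 interferon response genes, 6 were lower (42.9%, against 9.38% of all genes) and 1 higher (median −0.80). Among the lower genes, *Isg15*, *Oasl2* and *Psmb9* passed the FPKM minimum only through WT cells, where their values were higher. Against WT cells of the *Smad4* line the median was −0.40 and *Stat2* lost its call (−1.28 and −0.02), and without the genes past the limit in *Eomes* KO cells on day 3 the median was −0.11. *Isg15* was at 1.23 in WT and listed at 0 in KO cells, and the immunoproteasome subunits *Psmb9* and *Psmb8* had log2 ratios of −1.98 and −1.73. In *T* KO cells on day 3, *Isg15*, *Psmb9* and *Psmb8* were lower too (−3.81, −1.60 and −2.23). Glycolysis and hypoxia genes had 3 of 19 lower (15.8%), none of them past the limit against WT cells of the *Smad4* line, with the glycolytic enzyme *Eno1* at 641 and 250 (log2 −1.36) and its near-identical copy *Eno1b*, with which reads may be shared, at 10.7 and 4.83, while *Pkm* (1452 and 1778) and *Slc2a1* (159 and 202) lay within the limits. Of 23 cell cycle genes, *Cdkn1a*, encoding the inhibitor p21, was lower (12.3 and 4.56, log2 −1.42), and none was higher. Of 19 imprinted genes 4 were lower and 4 higher (21.1% each, against 9.38% and 5.25% of all genes). *H19*, *Ndn* (log2 −1.73), *Snrpn* (log2 −1.40, uncertain because its sequence is contained in that of *Snhg14*) and *Peg10* (log2 −1.23, but −0.53 against WT cells of the *Smad4* line) were lower, and the linked maternally expressed RNAs *Mirg* (7.97 and 25.7, log2 1.68) and *Meg3* (4.46 and 13.7, log2 1.6) were among the higher genes. *Cyp1a1*, a cytochrome P450 induced through the aryl hydrocarbon receptor, was at 1.34 and 15.7 (log2 3.46).

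Counts of called markers of other cell types can be read against 9.38% lower and 5.25% higher among all genes. Of 17 feeder fibroblast genes 6 were examined and *Loxl1* was higher (log2 1.36), their summed FPKM was 25.9 in WT and 36.2 in KO cells, and the most abundant, *Timp1*, was at 6.32 and 8.34. The defining fibroblast collagens *Col1a1* (0.247 and 0.0652) and *Col3a1* (0.0735 and 0.0397) were near 0. Of 4 blood and endothelium genes examined none was past the limit, and of 5 definitive endoderm genes *Foxa2* was higher (0.527 and 1.28, log2 1.14) and *Foxa3* lower (2.01 and 0.894, log2 −1.08), though both lay within the limits against WT cells of the *Smad4* line (0.69 and −0.47). Of 12 trophoblast and amnion genes *Ascl2* (log2 −2.28, but −0.83 against WT cells of the *Smad4* line) and *H19* were lower and *Cdx2* and *Esx1* higher, 16.7% in each direction. Of 5 cardiomyocyte genes *Actc1* was higher (0.884 and 2.50, log2 1.40). Of these called markers, *Loxl1*, *Foxa2*, *Cdx2*, *Esx1* and *Actc1* passed the FPKM minimum only through KO cells, where their values were higher. *Foxa3*, *Ascl2* and *H19* passed it only through WT cells, where their values were higher.

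Set against the WT time course, *T* KO cells on day 2 were closest to WT cells of the same day. Over 11342 genes, 14.6% lay more than 1 log2 unit from WT on day 2, 21.5% from WT on day 3, 23.1% from WT on day 1 and 33.3% from WT ES cells. The share was 12.4% from *Eomes* KO cells on day 2 and 13.5% from *Eomes* KO cells on day 3, over 11359 genes. Genes of the list for posterior axis were higher by a median of 2.18 on WT day 3 than on WT day 2, and by 1.64 in *T* KO cells on day 2. Neural genes were higher by 0.69 on WT day 1 than on WT day 2, and by 1.31 in *T* KO cells, while on WT day 3 they differed by −0.05. *Nkx1-2* and *Lef1* exceeded every WT stage in *T* KO cells (15.9 and 13.0, against highest WT values of 9.69 and 8.51). *Foxd3* did so too, at 15.2 against 11.2 in ES cells.

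**Figure D4:**
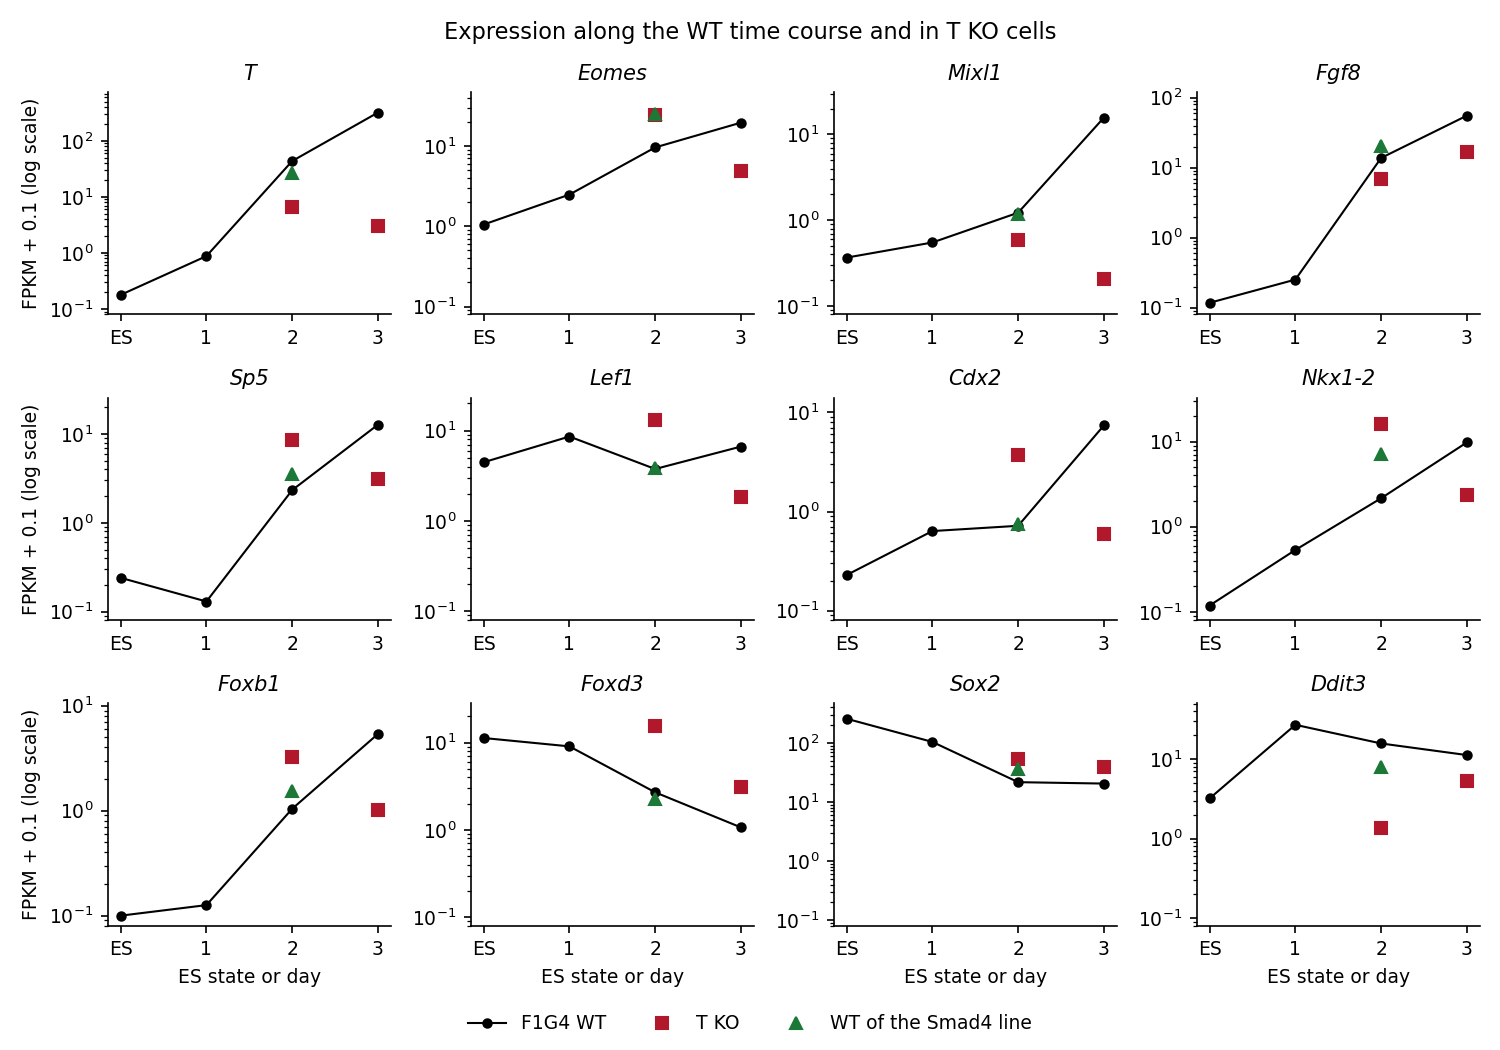
Each panel shows a gene, with the ES state or day on the x axis and FPKM + 0.1 on a log y axis, scaled to the WT time course. Black circles are F1G4 WT, red squares T KO cells on days 2 and 3 and the green triangle WT cells of the Smad4 line on day 2. T is below WT on both days, whereas Eomes, Sp5, Lef1, Cdx2 and Nkx1-2 are above F1G4 WT on day 2 and below it on day 3, though Eomes on day 2 is not above WT cells of the Smad4 line.

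Most short non-coding RNAs were higher. Of 69 small nucleolar RNAs (snoRNAs) examined, 53 were higher (76.8%, against 5.25% of all genes) and 2 lower (median 2.31), and of 89 genes with transcripts of at most 300 bases 65 were higher and 4 lower (median 2.29). *Snora62* stood at 1.35 in WT against 31.5 in KO cells and *Snora52* at 29.7 and 268. The box C/D snoRNA *Snord118* was at 0.56 and 10.5. In *Eomes* KO cells on day 2, compared with the same WT samples, the log2 ratios of *Snora62*, *Snora52* and *Snord118* were 3.13, 3.33 and 4.60. Of 218 long non-coding RNAs 62 were higher and 13 lower (median 0.52). FPKM was computed without correction for effective length, which leaves values of RNAs near or below the fragment length uncertain, and the part of fragment size was not tested.

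Ratios also ran with GC content and transcript length. Among the 10957 protein-coding genes, of which 1025 were lower and 456 higher, the median log2 ratio was 0.24 in the group with the highest GC content of 10 equal groups and −0.06 in the group with the lowest. By GC content the median was lowest in group 2 (−0.12), counted from the lowest GC. The median log2 ratio was −0.15 for the group with the shortest of 10 ordered by transcript length and 0.09 for that with the longest. In *Eomes* KO cells on day 3 the medians for the shortest and longest groups were −0.34 and 0.29, and in *T* KO cells on day 3 they were 0.03 and −0.08. With both trends subtracted, 961 genes were lower and 437 higher.

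**Figure D5:**
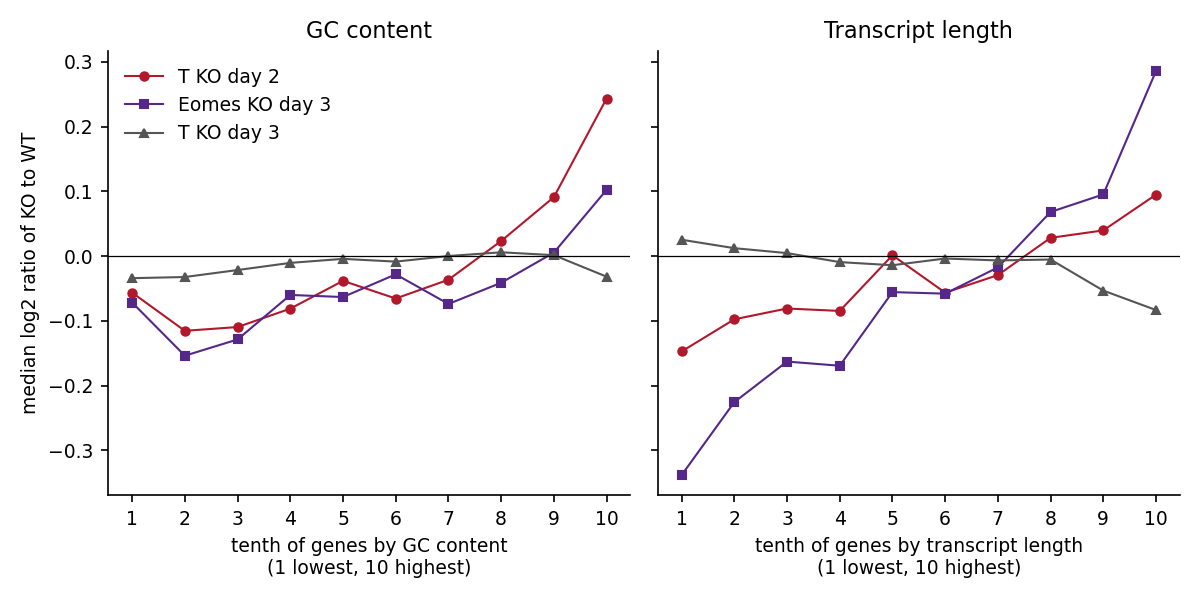
Median log2 ratio of KO to WT (y axis) in 10 equal groups of protein-coding genes ordered by GC content (left) or transcript length (right) on the x axis, for T KO on day 2 (red circles), Eomes KO on day 3 (purple squares) and T KO on day 3 (grey triangles). With GC content, T KO on day 2 stands at −0.06 in group 1, is lowest in group 2 (−0.12) and reaches 0.24 in group 10. With length it goes from −0.15 in group 1 to 0.09 in group 10, and T KO on day 3 stays between −0.08 and 0.03.

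A T half-site was looked for in the 250 bases upstream of gene starts (RefSeq, mm10) as TCACACCT on either strand. Of 27025 genes with such a sequence 350 held it (1.30%), and among the genes examined here 65 of 8862 did (0.733%). It was present in 6 of 833 lower genes (0.720%) and in 7 of 402 higher genes (1.74%). A match is a description of sequence only, and sites elsewhere were not searched.

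Other protein-coding genes with high ratios and an FPKM above 10 in KO cells were *Pcdh1*, a protocadherin (3.63 and 14.6, log2 1.98), *Erf*, a repressor of the ETS family (6.56 and 23.3, log2 1.81), and *Leng8* (3.67 and 12.7, log2 1.77). *Pcdh1* was also higher in *T* KO cells on day 3 (1.14), whereas *Erf* (−0.07) and *Leng8* (−0.05) were not past the limit there.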

How the data were processed

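RNA-seq libraries were strand-specific and made from total RNA. The authors trimmed reads, aligned them with HISAT2 to mm10 (GRCm38) with the refSeq annotation, and deposited FPKM from Cuffdiff with multi-read and bias correction but none for effective length. Per the submitters' processing notes, versions were HISAT2 2.1.0, cutadapt 2.9 and Cuffdiff 2.2.1. Each column pools its condition. Read depth is unknown.

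Ratios used a pseudocount of 0.1 FPKM and genes above FPKM 1 in either column. Other tables were scaled to the time course by the median ratio of WT columns, and the *Smad4* line by its ratio to F1G4 WT. Of the symbols, 24448 matched the RefSeq annotation of GRCm38.p6 and 90 did not. The median used in scaling was taken over expressed genes. Genes sharing at least 50% of 31-mers with another gene counted as near-identical copies. Members and the 30 gene lists were chosen with earlier results of these data known.

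Named genes were *T* and *Eomes*, up to 4 called members per list with the largest ratios and some within the limits, and the 10 lowest and highest called protein-coding genes whose higher column reached FPKM 10 and lower column 0.1. Up to 5 genes per direction with a lower column under 0.1 were added. *Rn45s*, proteasome and ribosomal genes, short RNAs and further list members were named after their values were seen. A called gene that the rule names is not reported here. The call rule was tested on simulated data. Calculations used Python 3.11.15, numpy 2.4.6 and pandas 2.3.3.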

Additional observations from a re-analysis of the deposited data

Results flagged for a closer look

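Of the genes in the 30 lists or named by the stated rule, 16 were called in opposite directions in *T* KO relative to WT cells on days 2 and 3. Each day has a single value per condition, and the difference between days was not tested. Higher on day 2 and lower on day 3 were *Nkx1-2* (2.89 and −2.04), *Cdx2* (2.39 and −3.64), *Sp5* (1.89 and −2.05), *Lef1* (1.8 and −1.84), *Foxb1* (1.63 and −2.41), *Epha4* (1.33 and −2.09), *Eomes* (1.32 and −2.0), *Msx1* (1.29 and −1.39), *Zeb2* (1.24 and −1.51), *Twist1* (1.09 and −1.47) and *Evx1* (1.04 and −3.42), all as log2 ratios. Against WT cells of the *Smad4* line on day 2, *Eomes* (−0.06) and *Epha4* (−0.17) were not higher, and *Evx1* (0.75), *Twist1* (0.77) and *Zeb2* (0.62) lay within the limits. Lower on day 2 and higher on day 3 were *Car4* (−4.08 and 1.16), *Egr1* (−2.47 and 2.55), *Ascl2* (−2.28 and 1.53), *Fos* (−1.51 and 1.07) and *Egr2* (−1.27 and 1.28). Of these 5 genes, *Car4* alone was also past the limit against WT cells of the *Smad4* line (−4.51), where *Ascl2* was at −0.83, *Egr1* at 0.18, *Fos* at 0.27 and *Egr2* at 0.89. Over all genes, 41 were called in opposite directions on the 2 days and 135 in the same direction.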

How the results depend on the processing

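No paired analysis was possible because the columns carry no replicate numbers. Leaving out a replicate was not possible either, as each column pools its condition. The count of higher genes (596) moved to 314 with a pseudocount of 1, to 1222 without an FPKM minimum, to 312 with FPKM above 5 and to 1078 with WT cells of the *Smad4* line as the reference. With a log2 ratio beyond 2 the counts were 203 lower and 100 higher. Without genes past the limit in *Eomes* KO cells on day 3 they were 638 and 390. The last setting and those with the *Smad4* line were chosen after seeing the data. The lower count ranged from 638 to 1577 with the limit at 1. Under the other settings both counts of called genes stayed within 1.5 times the reported ones. List medians moved too. Posterior axis and neural genes (1.63 and 1.31) went to 0.75 and 0.69 without an FPKM minimum, and posterior axis genes to 3.15 with FPKM above 5. Against the *Smad4* line the median went to 0.98 for posterior axis, 0.88 for neural and −0.21 for immediate early genes, and without the genes of *Eomes* KO cells it went to 0.59 for neural, −0.22 for Atf4, 0.87 for nascent mesoderm and 0.96 for FGF genes. Extracellular matrix genes changed sign, from −0.28 to 0.11 with FPKM above 5. With that minimum cardiomyocyte genes went from 0.41 to −0.25 and Wnt ligands from −0.37 to 0.11. Endoderm genes went from −0.30 to 0.10 without an FPKM minimum. Against the *Smad4* line imprinted genes went from −0.13 to 0.43 and cardiomyocyte genes to −0.59. Among called genes in the lists or named by rule, 4 still above the FPKM minimum changed sign against WT cells of the *Smad4* line. These were *Eomes* (−0.061), *Epha4* (−0.17), *Id1* (0.63) and *Ndrg1* (0.41). *Egr1* (0.18), *Fos* (0.27) and *Egr2* (0.89), below that minimum, changed sign too. The cause was not tested. A pseudocount of 1 took 34 of 117 called genes among those named or listed out of the calls, TPM took 3, and a call against both WT lines took 32. Depth is unknown, so precision at low FPKM cannot be given.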

Other observations

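Genes called in both *T* KO comparisons in the same direction numbered 77 lower and 58 higher. Of those higher on both days, *Tiparp*, a target of the aryl hydrocarbon receptor, stood at 30.8 in WT against 90.8 in KO cells on day 2. Day 3 values of *Tiparp* were 31 and 73.2. *Irx5*, a neighbour of *Irx3*, stood at 0.254 and 1.52 on day 2, then at 0.116 and 1.07 a day later. *Hoxb2* was higher on day 2 (0.186 and 2.17) and lower on day 3 (5.99 and 1.74). These genes were chosen after their values were seen.

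Besides *Rn45s*, 3 genes were below 0.01 in *T* KO cells on day 2 and above 5 in each of the other 10 columns, namely *Gm10052*, *Gm5643* and *Hmga1b*. *Gm10052* shares sequence with *Hnrnpa1*, and *Hnrnpa1* had a log2 ratio of −1.58.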
